A study of Strongylocentrotus purpuratus with 2 samples.

Results

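Alx1 sites that lie close together were examined in the purple sea urchin (Strongylocentrotus purpuratus) at an embryonic stage. Of 2906 peaks in the authors' list, 455 (15.7%) had a summit 5 kb or less from another summit on the same scaffold. The summit is the base of highest coverage within a peak. Linking consecutive summits 5 kb or less apart gave 207 runs on 179 scaffolds, and the other 2451 peaks stood alone at this distance. The members were therefore chosen by called positions, which come from the same libraries as every value given here. All differences between clustered and other peaks are descriptions, without a test.

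Chromatin immunoprecipitation with sequencing (ChIP-seq) recovers the DNA that a protein is bound to by means of an antibody. Whole embryos had reached the mesenchyme blastula, at 24 hours post fertilisation. Material came from 3 cultures, per the series' design text, and each library is pooled, per the sample labels. The ChIP library was made with a custom Sp-Alx1 antibody and the mock library with normal rabbit IgG, and both were sequenced as 50-nt reads from one end. With 1 library per antibody, nothing below has a replicate check. Strain and treatment were not given in the labels, and total depth is unknown. In whole embryos, a site bound in few cells and a site bound weakly in many cannot be told apart.

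Alx1 is a transcription factor with a paired-class homeodomain, a DNA-binding fold that can occupy DNA singly or as a dimer. It is required in the sea urchin for the primary mesenchyme cells, which move into the blastocoel around the time sampled here and secrete the larval skeleton. Regulatory DNA in animals is often organised in modules, short stretches that bind several factors, and a gene can have several modules spread over its flanks and introns. No source used here gives the genome build of the peak list, and the gene table at hand named the scaffolds of 0 of the 2906 peaks. Genes, motifs and DNA sequence at these sites were not analysed here.

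Linked summits were mostly much closer than the limit. The 248 linked pairs of consecutive summits had a median distance of 1653 bp. Pairs up to 0.5 kb apart numbered 24, those over 0.5 to 1 kb 50, those over 1 to 2 kb 66 and those over 2 to 5 kb 108. Measured between the facing edges of the peaks, the gap ran from 44 to 4809 bp, with a median of 1329 bp. It was under 190 bp, the width of the narrowest peak in the list, in 21 pairs.

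**Figure D1:**
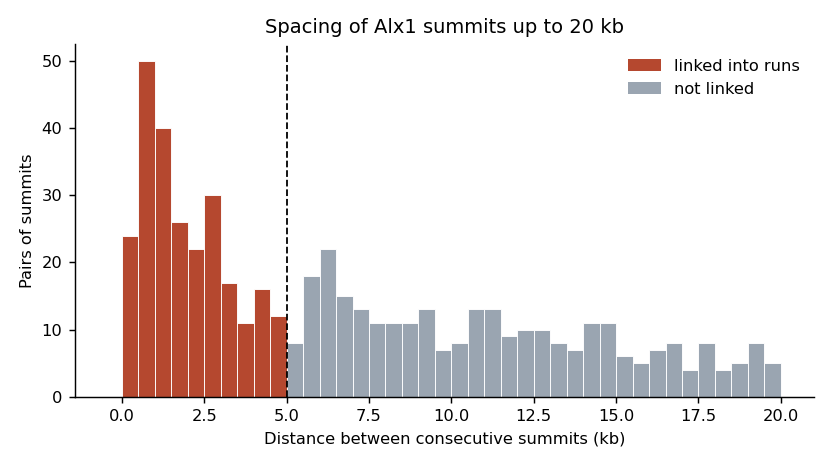
Number of pairs of consecutive Alx1 summits (vertical axis) by their distance in kb (horizontal axis, in steps of 0.5 kb, up to 20 kb). Bars left of the dashed line at 5 kb are the 248 linked pairs, and the highest bar, from 0.5 to 1 kb, holds 50 pairs.

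The limit of 5 kb fell in a continuous range of distances. The 3 widest linked pairs lay on Scaffold668 (4997 bp), Scaffold2753 (4989 bp) and Scaffold151 (4931 bp). Fold enrichment, the authors' ratio of ChIP to local background at the summit, was 3.85 and 4.25 on Scaffold668, 2.57 and 2.90 on Scaffold2753, and 4.63 and 5.76 on Scaffold151. The nearest pairs outside lay on Scaffold244 (5040 bp), Scaffold2765 (5158 bp) and Scaffold652 (5173 bp). Their folds were 3.16 and 4.10, 3.40 and 5.23, and 3.28 and 3.02. The folds of the pairs on either side of the limit overlapped. However, the second summit of each outside pair was itself a member of a run, linked to a further summit. The first summits of these outside pairs, which were not members, had folds of 3.16, 3.40 and 3.28.

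Most runs were pairs. There were 169 runs of 2 summits, 36 of 3, 1 of 4 and 1 of 5. From first to last summit, the runs spanned a median of 2012 bp, with quartiles of 997 and 3351 bp. Runs of 2 spanned a median of 1707 bp and runs of 3 a median of 3464 bp. Peaks themselves covered a median of 24.6% of the stretch from the first start to the last end, with a range of 7.82% to 93.4%. The called regions were thus separated by DNA in which no peak was called, over lengths from 44 bp to several kb.

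In runs of 3, the shorter of the distances took a median of 35.2% of the span, with quartiles of 17.3% and 40.9%. The summit of highest fold was the middle one in 16 of these runs, the last in 13 and the first in 7. Runs themselves were scattered: 22 scaffolds carried 2 runs, 3 scaffolds carried 3, and the next run on a scaffold lay within 20 kb in 7 cases. The shortest distance between neighbouring runs was 5.69 kb, on Scaffold295.

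The scaffolds with 3 runs, singled out after their values were seen, were Scaffold58, Scaffold343 and Scaffold652, and none of their summits reached a fold of 5 within a run. On Scaffold58 the runs lay 264 and 69.5 kb apart, with highest folds of 3.88, 2.82 and 3.94. The runs on Scaffold343 lay 76.8 and 29.01 kb apart, with highest folds of 4.02, 3.85 and 4.58. On Scaffold652 distances were 60.3 and 109 kb, and highest folds 3.02, 4.24 and 2.79.

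The run with the highest fold was also the one of 4 summits, on Scaffold122 from 930921 to 940954. Its second summit, in a peak of 238 bp, had a fold of 12.3 and carried 69 ChIP fragments (exact 95% Poisson interval 53.7 to 87.3) on 4 mock fragments. Fragment numbers were solved from the deposited fold and p, and their intervals cover counting error only. The first summit had a fold of 6.17 and 20 ChIP fragments (interval 12.2 to 30.9). The last summits had folds of 4.05 and 4.71, with 22 (interval 13.8 to 33.3) and 15 fragments (interval 8.40 to 24.7). One summit thus stood clear of its neighbours in this run, since its interval overlapped none of the others, whereas the other 3 overlapped one another. All 4 peaks passed a q of 0.05, and the mock background was 2 fragments at the first and last summits and 4 at the other summits. Distances between the summits were 4596, 3493 and 1662 bp.

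The run of 5 summits, on Scaffold1985 from 126280 to 135659, had no such outlying member. Its folds were 2.79, 2.78, 5.42, 4.61 and 2.31 in order along the scaffold. ChIP fragments were 18, 37, 36, 20 and 20, with intervals that ran from 10.7 to 28.4 at the lowest and from 26.1 to 51.0 at the highest and so overlapped. The fold did not follow the ChIP numbers alone: the second and middle summits had nearly the same ChIP numbers, but 11 mock fragments stood at the second and 5 at the middle one. The first and last peaks of this run had q values of 0.121 and 0.366, so 3 of the 5 passed a q of 0.05.

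Beside the Scaffold122 run, the 10 runs that contained the highest folds were mostly pairs. On Scaffold6, from 398332 to 403042, summits 4431 bp apart had folds of 6.85 and 9.71, on 26 and 31 ChIP fragments. On Scaffold1678, from 118849 to 120622, folds of 4.81 and 8.77 stood 1536 bp apart, on 20 and 45 fragments. Scaffold142, from 645400 to 646500, carried folds of 6.51 and 8.35 at 589 bp, on 36 and 41 fragments. On Scaffold6 and Scaffold142 both summits were therefore strong, with overlapping counting intervals. Scaffold295, from 12875 to 16493, was a further pair with both summits strong, with folds of 7.35 and 8.22 at 3283 bp on 22 and 27 fragments. Mock backgrounds there were 1.76 fragments, the genome-wide level of the peak caller and the lowest possible value, and 2 fragments. The next run on that scaffold, from 21864 to 24397, had folds of 3.08 and 2.86 on 27 and 61 ChIP fragments, with mock values of 7 and 18. Neighbouring runs on Scaffold295 thus differed in fold while their ChIP numbers were equal or higher in the weaker run.

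The widest peaks of these runs lay in 3 of them. On Scaffold2765, from 119359 to 122128, the middle of 3 peaks was 894 bp wide, the widest of the whole list, with a fold of 7.38 on 41 fragments. Its neighbours were 286 and 281 bp wide, with folds of 5.23 and 3.75. On Scaffold982, from 225661 to 228046, a peak of 764 bp with a fold of 3.29 on 59 fragments lay 2029 bp from one of 346 bp with a fold of 7.58 on 94 fragments. Here the wider peak was the weaker, and its mock background was 15 fragments against 10. On Scaffold1566, from 25970 to 28340, the strongest peak was also the widest, at 479 bp with a fold of 7.36. The other 2 peaks of that run were 206 and 248 bp wide, with folds of 3.70 and 6.52. The remaining pairs, on Scaffold484 (50953 to 52148) and Scaffold464 (202931 to 204040), had folds of 4.83 and 7.56, and of 2.32 and 7.48.

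**Figure D2:**
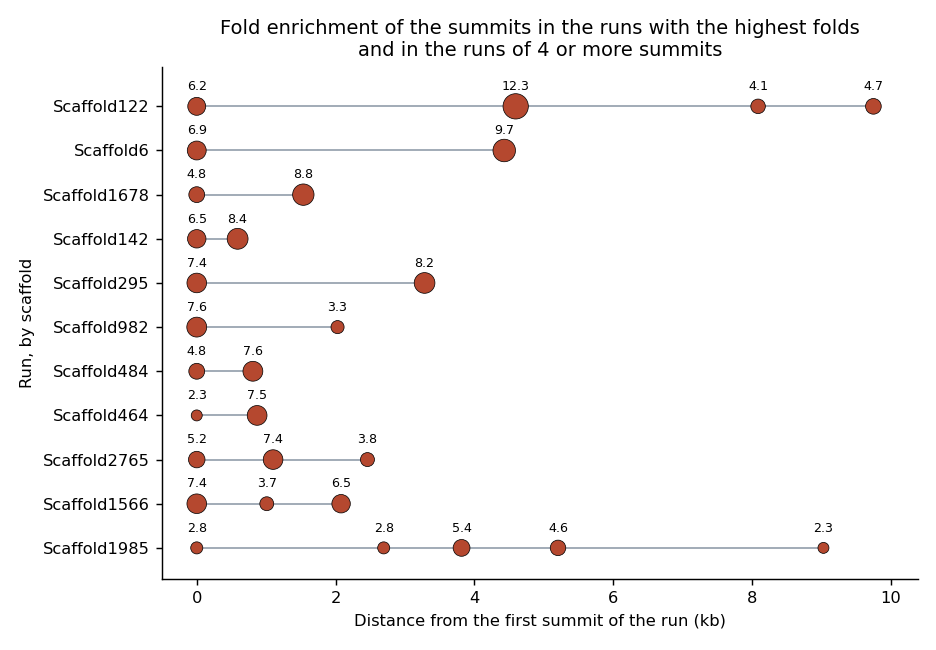
Summits of the 10 runs with the highest folds and of the run of 5, placed by distance in kb from the first summit of the run (horizontal axis), 1 run per row. Point area is proportional to fold enrichment, printed above each point; on Scaffold122 a summit of fold 12.3 stands among 3 weaker summits, whereas on Scaffold295 both summits are near 8.

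Peaks of high fold made up a larger share of the clustered peaks than of the list, and most runs with such a peak held 1. A fold of at least 5 was reached by 58 of 455 clustered peaks (12.7%), against 8.50% of all peaks. These 58 peaks lay in 48 runs, of which 10 held 2 or more of them. In 4 runs, all of 2 summits, every member reached a fold of 5. These were the pairs on Scaffold6, Scaffold142 and Scaffold295 and a pair on Scaffold12, from 692797 to 694599, with folds of 5.48 and 5.44 on 27 and 44 ChIP fragments. Of the first 100 peaks of the list by fold, 31 were clustered, while the first 100 by p held 20 and the first 100 by ChIP fragments 18, where 15.7% of all peaks were. The peaks first by fold were thus the ones most often clustered, and those first by fragments were near the share of the whole list.

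Members of a run differed modestly in fold. The strongest member had a median fold of 4.05 and the other 248 members a median of 3.08. The ratio of the highest to the lowest fold had a median of 1.34, with quartiles of 1.14 and 1.64. It was under 1.2 in 70 runs (33.8%) and at least 2 in 17 (8.21%). Because the higher of any values exceeds the lower by construction, consecutive summits over 5 to 20 kb apart were taken for comparison. Some of these pairs hold a member of a run, such as those named above on Scaffold244, Scaffold2765 and Scaffold652. The compared sets therefore share peaks, here and in the comparisons below. In the 289 pairs at 5 to 20 kb the ratio had a median of 1.29, and in the 248 linked pairs also 1.29. It was at least 2 in 6.92% and 6.45% of them. Within the linked pairs the median was 1.13 at up to 0.5 kb, 1.38 at over 0.5 to 1 kb, 1.32 at over 1 to 2 kb and 1.28 at over 2 to 5 kb. The closest pairs were thus the most alike in fold, and the pairs just beyond them the least. Summits under 190 bp apart can count the same fragments of 190 bp, and the part of this in the likeness was not tested. Most pairs at up to 0.5 kb stood farther apart than 190 bp, with a median distance of 306.5 bp.

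The difference in fold between neighbours was split into its parts. The fold is a quotient, so its log2 ratio between neighbours is the sum of a ChIP term and a mock term. In linked pairs the median ChIP term was 0.22 and the median mock term 0.19. In pairs over 5 to 20 kb apart they were 0.00 and 0.49. The linked pairs were not alike in this: the terms were 0.19 and 0.01 at up to 0.5 kb, 0.16 and 0.39 at over 0.5 to 1 kb, 0.18 and 0.12 at over 1 to 2 kb, and 0.25 and 0.16 at over 2 to 5 kb. The summit of higher fold had more ChIP fragments in 150 of 248 linked pairs (60.5%) and in 143 of 289 pairs at 5 to 20 kb (49.5%). It had the lower mock background in 58.1% and 68.2% of them. Linked pairs at over 0.5 to 1 kb had 56.0% and 68.0%. Their mock share was close to that of the pairs at 5 to 20 kb. Their ChIP share lay between those of all linked pairs and of the pairs at 5 to 20 kb. Where the mock is averaged over a window, up to 10 kb wide, close neighbours share part of it. The part of this in the result was not tested. Among clustered peaks the mock matched a window of 1 kb in 24.0% and of 10 kb in 11.6%. In 61.1% it matched a whole number at the summit itself, and in 3.30% the genome-wide level.

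Counts separated the minority of close neighbours. The exact 95% interval of the ratio of ChIP fragments (Clopper-Pearson, counting error only) left out 1 in 63 of 248 linked pairs (25.4%) and in 93 of 289 pairs at 5 to 20 kb (32.2%). In the other linked pairs, a difference in ChIP fragments was not detectable at this depth. The interval takes the counts of a pair as independent, which those of summits under 190 bp apart may not be. Across runs, the summit of highest fold had the most ChIP fragments but not the least mock in 74 runs, the least mock but not the most ChIP fragments in 73, both in 55 and neither in 5. It was the widest peak of its run in 112 runs (54.1%).

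**Figure D3:**
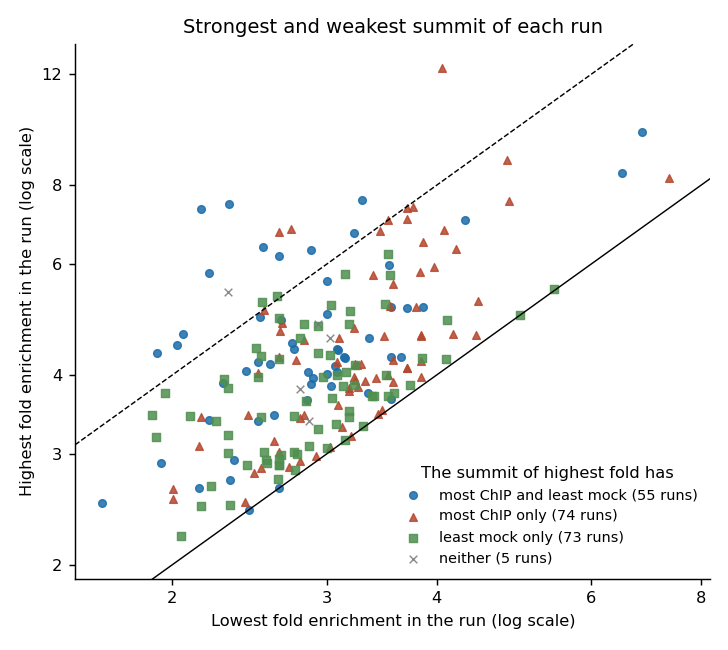
Highest against lowest fold enrichment of the 207 runs (both axes log scale), 1 point per run, with the marker showing whether the summit of highest fold had the most ChIP fragments, the least mock, both or neither in its run. The solid line marks equal folds and the dashed line a ratio of 2, which 17 runs reached.

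Of the 5 runs with the most unequal folds, 3 were pairs whose ChIP fragments differed far less than their folds. On Scaffold3620, from 6864 to 8610, folds of 2.16 and 7.34 stood on 21 and 24 ChIP fragments, with 8 and 2 mock fragments. The ratio of fold was 3.41, the largest of any run, and the ratio of ChIP fragments 1.14. On Scaffold464 folds of 2.32 and 7.48 stood on 28 and 33 ChIP fragments, with 10 and 3 mock fragments. Scaffold735, from 276626 to 280366, had folds of 5.81 and 2.20 on 32 and 24 ChIP fragments, with 4 and 9 mock fragments. In these 3 pairs the intervals of the ChIP numbers overlapped, and the weaker peak had a q above 0.05. On Scaffold122 and Scaffold1445, by contrast, ChIP fragments at the strongest and weakest summits were 69 and 22, and 122 and 23.

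In 3 of the 5 runs with the largest sum of ChIP fragments over their summits, most of the sum stood at a single summit. These 3 runs each had 3 summits. Fragments elsewhere in the peaks are not in the sum, and summits under 190 bp apart can count the same ones. Another of the 5 runs was the Scaffold982 pair described above, with 94 of 153 fragments at its stronger summit. In a pair with unequal counts, the larger count is most of the total by construction. On Scaffold3204, from 53483 to 55559, the last of 3 summits had 136 of 176 fragments (interval 114 to 161), a fold of 7.07 and a width of 550 bp. The other summits had 12 and 28 fragments and folds of 3.77 and 3.70, and the nearer one lay 262 bp away. On Scaffold1445, from 146641 to 151109, the middle summit had 122 of 171 fragments and a fold of 6.74, between folds of 5.24 and 2.64. On Scaffold35, from 655799 to 657359, the last of 3 had 103 of 150 fragments and a fold of 5.07, and the others, 136 bp apart, had 25 and 22. Mock fragments at the strongest summits on Scaffold3204, Scaffold1445 and Scaffold35 numbered 16, 15 and 17, against a median of 4 in the whole list.

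The fifth of these runs, of 3 summits on Scaffold982 from 213692 to 218646, had no such summit. It had 41, 52 and 55 ChIP fragments with overlapping intervals. The mock values were 12, 22 and 10, and the folds 2.84, 2.02 and 4.47. The Scaffold982 pair began 7.35 kb after the last summit of this run, so that 5 summits with 41 or more ChIP fragments lay within a short stretch. All 5 peaks had a q of at most 0.05.

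The closest summits mostly had low folds, where the whole list had a median of 3.38. On Scaffold1441, summits 112 bp apart had folds of 1.96 and 2.11, and the remaining summit of the run, 3483 bp away, had 3.74. The pair on Scaffold652 (222937 to 223395), 144 bp apart, had folds of 2.48 and 2.79, and neither peak passed a q of 0.05. On Scaffold1547 (51458 to 52650) and Scaffold485 (524503 to 526166) the closest summits stood 155 bp apart, with folds of 2.64 and 2.52, and of 2.86 and 3.38. With the pair on Scaffold35 at 136 bp, whose folds were 2.54 and 2.86, these were the 5 runs with the closest summits. In the same order, q was 0.0387 and 0.237 on Scaffold1547, 0.0157 and 0.00203 on Scaffold485, and 0.0696 and 0.0191 on Scaffold35. Neither close peak on Scaffold1441 passed a q of 0.05. ChIP fragments were 13 and 18 on Scaffold652 and 19 to 25 in the other close pairs, where the list had a median of 18. The facing edges of these closest peaks lay 44 to 56 bp apart, and whether they are separate sites was not tested.

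Peaks with the nearest summit up to 0.5 kb away had lower folds than the other clustered peaks. These 48 peaks had a median fold of 2.86 and a median mock background of 6 fragments. At over 0.5 to 1 kb the 97 peaks had a median fold of 3.52 and a mock of 4.12. The share with a q of at most 0.05 was 64.6% in the first set, near the 64.8% of all peaks, and 83.5% in the second. A fold of 5 was reached by 2 of 48 (4.17%) and 16 of 97 (16.5%), against 8.50% of all peaks. Median ChIP fragments were 23 and 22, so the lower folds went with higher mock values and not with fewer ChIP fragments.

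Clustered peaks as a whole carried more fragments of both kinds than other peaks. The median was 22 ChIP fragments (quartiles 17 and 29, range 8 to 136) in clustered peaks and 17 (quartiles 12 and 27, range 7 to 169) in the others. The ChIP ranges overlapped almost fully, and the lower quartiles differed more than the upper ones. The mock background had medians of 5 and 3.48 fragments, with quartiles of 3 and 7 in clustered peaks and 2.17 and 6 in the others. Median folds were 3.43 and 3.36. Without the pseudocount of 1 in the peak caller's fold, the order turned, with a median ratio of scaled ChIP to mock of 4.09 in clustered peaks and 4.16 in the others.

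Few clustered peaks were of the faintest kind. At most 12 ChIP fragments were found at 50 clustered peaks (11.0%) and at 680 other peaks (27.7%). Read the other way, the share of peaks that were clustered was 4.44% at 7 to 9 fragments (6 of 135 peaks; exact 95% binomial interval 1.65% to 9.42%) and 7.39% at 10 to 12. It was 27.8% at 20 to 24 fragments (119 of 428 peaks; interval 23.6% to 32.3%), the highest of the 9 bands, and 16.4% at 30 to 39 (interval 12.6% to 20.7%). At 60 or more fragments it was 19.5% (interval 11.3% to 30.1%). The share thus did not go on increasing with fragment number. The intervals take peaks as independent, which members of a run are not.

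**Figure D4:**
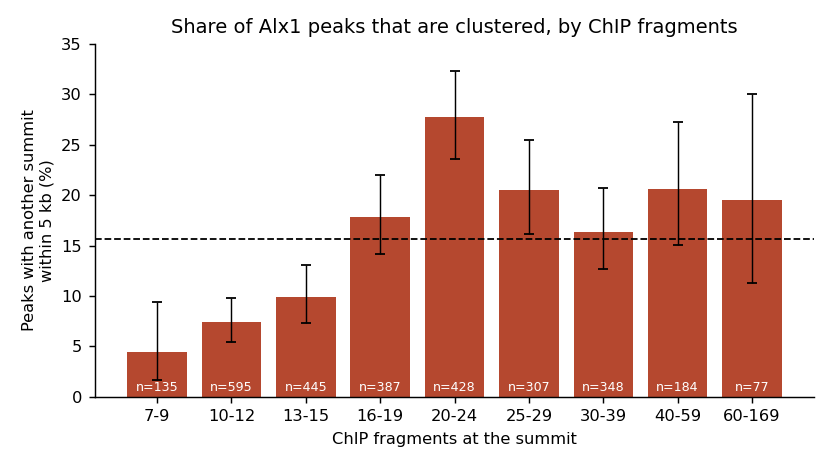
Percent of Alx1 peaks with another summit within 5 kb (vertical axis) by ChIP fragments at the summit (horizontal axis), with exact 95% binomial intervals as error bars and the number of peaks in each bar. The dashed line is the share of the whole list, 15.7%; the bar at 20 to 24 fragments, at 27.8%, is the highest.

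Mock fragments gave a similar picture. Clustered peaks made up 6.98% of the 215 peaks with the mock at the genome-wide level, 10.6% of those above it and up to 3 fragments, and 21.0% of those above 3 and up to 5. Above 12 mock fragments the share was 18.2%. A peak on a higher mock background needs more ChIP fragments to pass the p limit of the list (largest deposited p, 0.00498), so these relations are not separate.

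Scaffolds with a single peak could hold no clustered peak, and their 636 peaks were the faintest, with medians of 15 ChIP and 3 mock fragments and a width of 214 bp. Compared only with the 432 other peaks on scaffolds that held a run, the contrast shrank. Those peaks had medians of 19 ChIP and 4 mock fragments, against 22 and 5 in clustered peaks. Their share with at most 12 ChIP fragments was 22.9%, against 11.0%. Which scaffold a peak lay on thus accompanied part of the difference in fragments. Scaffold lengths and copy number were not used here.

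The peak caller's own correction was passed by a larger share of clustered peaks than of the list. A q of at most 0.05 was found for 348 of 455 (76.5%), against 64.8% of all peaks. It was 62.7% in all other peaks and 67.1% in the other peaks on scaffolds with a run. At a q of at most 0.01 the share was 61.1%, against 48.1% of all peaks. Not every run rested on such calls. All members had a q of at most 0.05 in 118 runs (57.0%), at least 2 members in 132 (63.8%), exactly 1 member in 62 and none in 13. The 13 runs with none were all pairs, and the highest fold in each lay between 2.45 and 3.67.

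Width differed in the same direction as fragment number. Clustered peaks had a median width of 236 bp (quartiles 204 and 291) and other peaks of 220 bp (quartiles 195 and 268). The minimum width of 190 bp was found in 52 clustered (11.4%) and 445 other peaks (18.2%), and widths over 400 bp in 35 (7.69%) and 117 (4.77%). Within a band of 20 to 24 ChIP fragments, the median widths were 248 bp in clustered and 226 bp in other peaks. The median mock background there was 5 in both. Other bands differed less in width, with 215 and 201 bp at up to 12 fragments and 221 and 219 bp at 13 to 19. At 25 to 39 fragments the medians were 252 and 238 bp. At 40 or more fragments the order turned, at 258 and 269 bp. Summits did not lie to one side: in runs of 2 they stood at a median of 51.8% of the peak width towards the neighbour.

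Fragment numbers changed gradually with distance to the nearest summit, without a step at 5 kb. Median ChIP fragments were 22 at over 2 to 5 kb, 21 at over 5 to 10 kb, 19 at over 10 to 20 kb and 16 beyond 100 kb. Median mock fragments at the same distances were 5, 5, 4 and 3.48. Fold did not follow this order: its medians were 3.45, 3.30, 3.43 and 3.29. The share of peaks with a fold of at least 5 was 16.5% at over 0.5 to 1 kb, 15.7% at over 1 to 2 kb, 11.1% at over 2 to 5 kb and 10.3% at over 5 to 10 kb. It did not fall steadily over all distances, with 4.17% at up to 0.5 kb and 5.31% at over 10 to 20 kb. Farther out it was 8.54% at over 20 to 50 kb, 8.75% at over 50 to 100 kb and 6.18% beyond 100 kb. Peaks over 5 to 10 kb from the nearest summit, which are not members, were thus closer to the clustered peaks than to the most isolated ones in fragments of both kinds.

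**Figure D5:**
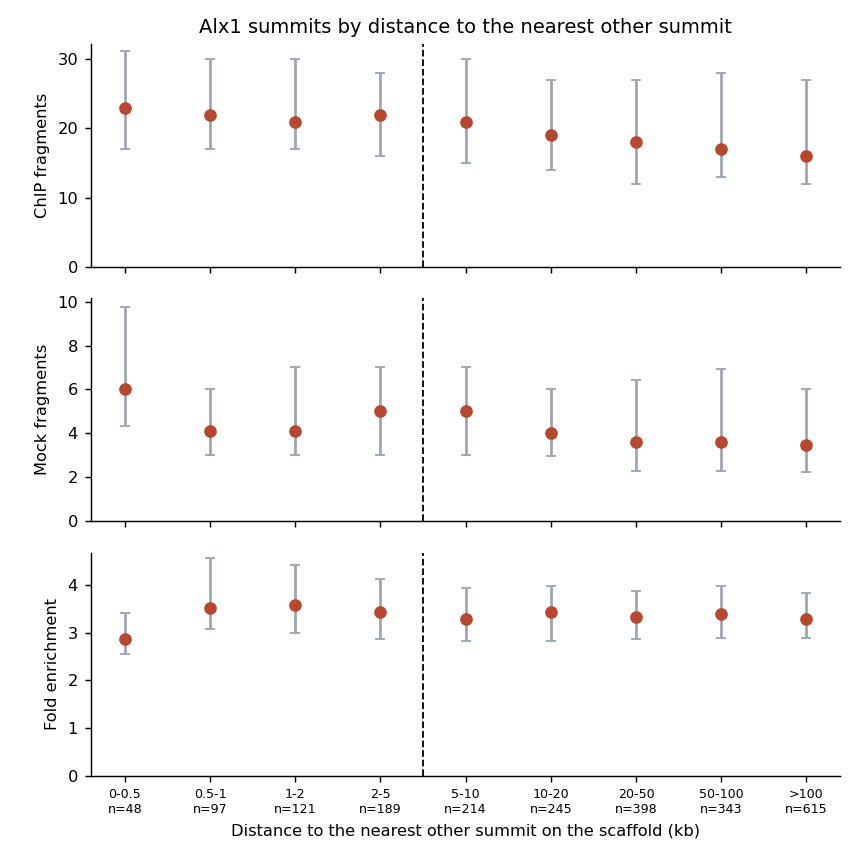
Median (points) and quartiles (bars) of ChIP fragments, mock fragments and fold enrichment by distance in kb to the nearest other summit; n is the number of peaks and the dashed line is the limit of 5 kb. Median ChIP fragments go from 23 at up to 0.5 kb to 16 beyond 100 kb, while the median fold is lowest, 2.86, at up to 0.5 kb.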

How the data were processed

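Trimmomatic, Bowtie2, SAMtools and MACS2 are named in the submitters' processing notes, with no versions; no source used here gives their settings, the genome build or the treatment of duplicates. The authors deposited 1 peak list and 1 summit list called on the pooled libraries. The deposited values per peak are a fold enrichment (a ratio of ChIP to local background), a −log10 p, a −log10 q and a whole-number score, which was not used. All 2906 summits matched between both lists. The values per peak are the authors' own and serve only to compare peaks of this list.

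ChIP fragments and mock background at each summit were solved with the formulas of MACS2, fold = (scaled ChIP + 1) / (mock + 1) and an upper Poisson tail for p, with 1 scale (0.876) fitted on 300 peaks. The largest misfit over the 2906 peaks was 3.41e-05 on the −log10 p scale, against at least 0.000232 for the next-best number. All backgrounds were the genome-wide level of 1.76, whole numbers, or multiples of what 1 fragment of 190 bp adds to an average over 1 kb or 10 kb, within 0.0003. The labels do not state these formulas. Solving and linking were tested on simulated data.

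Summits were sorted and linked at 5000 bp. Members, limits and comparisons were chosen with earlier results of these data known. Named runs are those of 4 or more summits, the 10 with the highest fold, and 5 each by closest summits, sum of ChIP fragments and ratio of highest to lowest fold, 21 in all, and 3 pairs on either side of the limit. No test was made, because members were chosen from the same calls and each antibody had 1 library. Python 3.11.15, NumPy 2.4.6, pandas 2.3.3 and SciPy 1.17.1 were used.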

Additional observations from a re-analysis of the deposited data

How the results depend on the processing

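Of 58 values under alternatives set beforehand, 35 stayed within 1.5 times the count, or within the 95% interval of the median or share. Linking at 2000 bp gave 266 clustered peaks, 126 runs, 14 runs of 3 or more and a median span of 1011.5 bp, in place of 455, 207, 38 and 2012 bp. Linking at 10000 bp gave 62 runs of 3 or more and a median span of 4279 bp. With only peaks of −log10 p of at least 5, there were 240 clustered peaks, 112 runs and 15 runs of 3 or more, with a median fold of 3.84, width of 248.5 bp and 26 ChIP fragments. With only peaks of q at most 0.05, there were 286, 132 and 21, with a median fold of 3.77, width of 245.5 bp and 24.5 ChIP fragments. Merging summits under 1000 bp apart left 18 runs of 3 or more, with a median span of 2571 bp. At a q limit of 0.01 the share of clustered peaks that passed was 61.1%, and that of runs with any such member 86.0%, against 93.7% at 0.05. The ratio without the pseudocount had a median of 4.09. A shorter or longer linking distance, fewer peaks entering and a stricter q change these numbers by construction; other causes were not tested.

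Other sets of peaks for comparison were chosen after seeing the data. They kept the direction of the differences in ChIP fragments, mock, fold, width and share at q of at most 0.05. Peaks alone on their scaffold were not among these sets. Their median fold was 3.435, against 3.433 in clustered peaks, so the direction in fold turned there. With other peaks on scaffolds with a run, the median ChIP difference was 3 fragments in place of 5. No paired analysis was possible because the series holds 1 pooled library for each antibody, so leaving one out was also not possible. Low fragment numbers limit how far members of a run can be ranked.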
